A study of Homo sapiens with 8 samples.

Results

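NIPBL and MED1 were compared by the rank of their ChIP-seq peaks in GM12878, an established human lymphoblastoid cell line derived from B lymphocytes. The 4 peak lists of NIPBL replicates 1 and 2 and MED1 replicates 1 and 2 were joined, and peaks that overlapped by at least 1 bp on chromosomes 1 to 22 and X were merged. This gave 48680 regions, against 92867 when the 2 SMC1A lists of the same series were merged in as well. In each region and each list the strongest peak was kept, and its fold enrichment over control was turned into a percentile among all peaks of that list, so that 100 marks the strongest peak. All cells were untreated. Each library was made from cells fixed with 1% formaldehyde for 10 min, and each of the 3 proteins was precipitated with 1 commercial antibody. Whether the replicates are separate cultures is not stated, and p-values therefore measure a spread that could be technical. Whole cell extract from 2 libraries was pooled as the control for every list, and the lists of both factors therefore share their control.

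NIPBL is the main subunit of the loader that places the cohesin ring on DNA and helps it extrude loops. MED1 is a subunit of the middle module of Mediator, the large complex that bridges enhancer-bound transcription factors and the RNA polymerase II machinery at promoters. SMC1A is a core subunit of the cohesin ring itself, which gathers at sites bound by CTCF and also lies at enhancers and promoters. ChIP-seq reports DNA crosslinked to a protein directly or through its partners. The comparison asks whether regions strong for the cohesin loader are also strong for Mediator.

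The lists differed in length. NIPBL gave 21422 and 15357 peaks in replicates 1 and 2, and MED1 gave 18131 and 45046. Median fold enrichment was 3.88 and 4.08 for NIPBL and 3.81 and 4.82 for MED1. The MED1 replicate 2 list stood apart in length and fold, and values without it stand beside the main ones. The fragment pileup at each summit, solved from the deposited fold and −log10 p, was at least 8 to 11 fragments in every list. Median pileups were 27 to 31 fragments, and binding too weak for a call against the local control is missing from these lists.

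Regions found in both lists of one factor were found in both lists of the other more often than the merged regions as a whole. The lists themselves set that baseline. A peak in all 4 lists was present in 7480 regions, or 15.4%. MED1 replicate 2 alone had a peak in 22354 regions, or 45.9%, and these had a median percentile of 31.2 in that list. Such regions cannot lie in both lists of a factor, in any NIPBL list or in MED1 replicate 1. They therefore lower those shares of all regions by construction. Of the 10962 regions found in both NIPBL lists, 68.2% (exact 95% interval 67.4 to 69.1%) were in both MED1 lists, against 30.7% of all regions. At least 1 MED1 peak was present in 93.6% of them, against 82.1% of the regions with a peak in any NIPBL list. All regions gave 92.04%, but a region without NIPBL holds a MED1 peak by construction, and MED1 replicate 2 supplied most. In MED1 replicate 1 alone the shares were 68.3% and 31.1%. Of the 14958 regions found in both MED1 lists, 50.0% were in both NIPBL lists and 69.9% in at least 1, against 22.5% and 44.5% of all regions. Regions of both NIPBL lists without any MED1 peak numbered 705, and regions of both MED1 lists without any NIPBL peak numbered 4501. Intervals of shares cover counting error only, and neighbouring regions are not independent.

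The strongest regions of each factor were the least likely to lack the other. The regions of each list were cut into 10 equal classes by their percentile. In the weakest class of NIPBL replicate 1, 58.3% of regions lacked a MED1 replicate 1 peak, and in the strongest class 19.7% did. The share stayed between 58.0% and 59.5% over the weakest 5 classes and fell only above them. Against MED1 replicate 2 it went from 16.8% in the weakest class to 22.1% in the third and 5.00% in the strongest. From NIPBL replicate 2 against MED1 replicate 2 it was 9.09%, then 10.9 to 11.9% in the following 6 classes, and 3.45% in the strongest. Against MED1 replicate 1, 45.4% of the weakest and 15.0% of the strongest class of NIPBL replicate 2 lacked a peak. In the other direction, 59.4% of the weakest and 5.22% of the strongest class of MED1 replicate 1 regions lacked NIPBL replicate 1. The median percentile of the partner also climbed. In regions with both peaks it went from 40.9 to 88.1 in MED1 replicate 1 across the classes of NIPBL replicate 1. Between replicates the rise depended on the pair: NIPBL replicate 2 went from 24.1 to 91.7 across the same classes, and MED1 replicate 2 from 62.5 to 98.2 across the classes of MED1 replicate 1. The mean rise over the pairs across factors was 45.7 points, and 53.1 without MED1 replicate 2.

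Where all 4 libraries had a peak, the ranks of the factors were related less closely than those of replicates. Spearman's rho of the percentiles was 0.682 between the NIPBL replicates and 0.803 between the MED1 replicates. Across factors it was 0.404 for NIPBL replicate 1 with MED1 replicate 1 and 0.366 with MED1 replicate 2. It was 0.437 for NIPBL replicate 2 with MED1 replicate 1 and 0.418 with MED1 replicate 2. All 4 values across factors lay below both replicate values. The means were 0.742 ± 0.0858 (SD, n = 2 pairs) and 0.406 ± 0.0301 (SD, n = 4 pairs), a gap of 0.336. An exact two-sided permutation test over the 3 ways of splitting 4 libraries into pairs gave p = 0.333, the smallest it can give, so this design cannot reach 0.05. Each rho is a description across regions that passed the call in every list. The points share the control, which is the denominator of every fold. With pileup, which holds no control, in place of fold the gap was 0.276, and without MED1 replicate 2 it was 0.269.

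**Figure D1:**
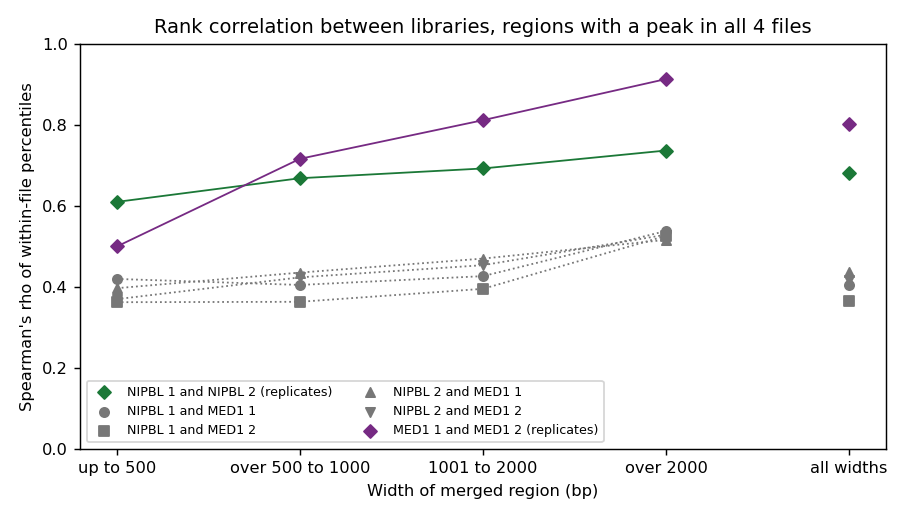
Spearman's rho of within-list percentiles (y axis) for each pair of libraries, over regions with a peak in all 4 lists, split by the width of the merged region in bp (x axis) and for all widths. Coloured diamonds are the replicate pairs and grey symbols the 4 pairs across factors, which lie below both replicate pairs in every width class.

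The gap was smaller in narrow regions. In the 791 regions of up to 500 bp, rho was 0.610 between NIPBL replicates, 0.4998 between MED1 replicates and 0.362 to 0.420 across factors. In the 3338 regions above 500 and up to 1000 bp, the gap was 0.286. In the 1071 regions over 2000 bp, the MED1 replicates reached 0.913 and the NIPBL replicates 0.737, while pairs across factors ranged from 0.516 to 0.538. Wide regions were thus ranked alike by the replicates of each factor and less alike across factors.

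**Figure D2:**
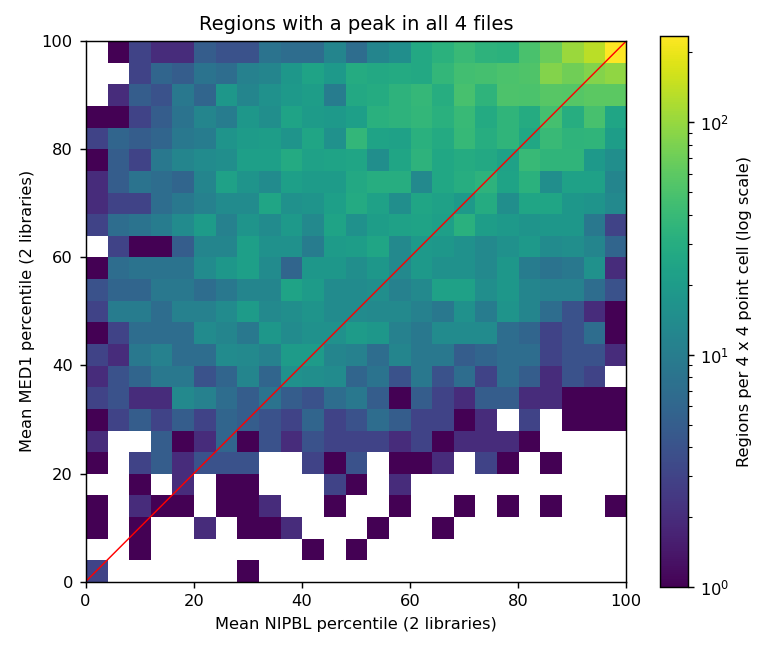
Number of regions (colour, log scale) by mean NIPBL percentile (x axis) and mean MED1 percentile (y axis) of the 2 libraries of each factor, over the 7480 regions with a peak in all 4 lists. The fullest cells lie at the top right corner, and more regions lie above the red line of equal percentiles than below it, an asymmetry that came with MED1 replicate 2.

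At these 7480 regions the median percentile was 71.6 and 63.1 in NIPBL replicates 1 and 2, and 69.7 and 89.0 in MED1 replicates 1 and 2. The MED1 replicate 2 value was the highest, in the longest list, and the other 3 libraries overlapped. Median pileups there were 37.5 and 32 fragments for NIPBL and 38 and 63 for MED1. In 2889 regions, 38.6% of those with all 4 peaks, both MED1 percentiles lay above both NIPBL percentiles, and in 828, or 11.1%, both NIPBL percentiles lay above. A distance of at least 25 points in every pair of libraries was seen in 826 regions (11%) toward MED1 and in 62 (0.829%) toward NIPBL. The asymmetry came with MED1 replicate 2. With MED1 replicate 1 alone, MED1 lay above both NIPBL percentiles in 2952 regions (39.5%) and below both in 2698 (36.1%), and by at least 25 points in 845 and 817. With MED1 replicate 2 alone the counts were 5352 (71.6%) and 893 (11.9%).

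A region was called high at a percentile of at least 75 and low at a percentile of at most 25 or without a peak, and a call had to hold in both replicates. Percentile 75 stood for a fold of 4.77 and 4.97 in the NIPBL lists and of 4.72 and 6.67 in the MED1 lists. Regions high in both factors numbered 1473 (3.03% of all regions). NIPBL-high MED1-low regions numbered 168 (0.345%), and 115 of them (0.236%) had no MED1 peak at all. MED1-high NIPBL-low regions numbered 498 (1.02%), and 306 of them (0.629%) had no NIPBL peak. These counts come from the ranks themselves and are descriptions without a test. The regions nearest the limits had NIPBL percentiles of 75.07 inside and 74.71 outside, with MED1 at 24.65 and 25.09. For the opposite class they were 75.01 and 74.98 in MED1, with NIPBL at 24.71 and 25.07. Cutting every list to its strongest 15357 peaks, the length of the shortest list, turned the order of the classes, to 357 NIPBL-high and 302 MED1-high regions. Leaving out NIPBL replicate 1, NIPBL replicate 2 or MED1 replicate 2 raised the NIPBL-high count to 336, 729 and 566. Leaving out NIPBL replicate 1 or MED1 replicate 1 raised the MED1-high count to 874 and 3704. Leaving out a library removes a condition of the call, so such rises follow largely by construction. Since the order turned with list length, which factor has more regions of its own is not settled by these lists.

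Disagreement between single libraries gives the scale for these classes. With equal numbers of peaks, 11.5% of the regions high in NIPBL replicate 1 were low or absent in NIPBL replicate 2, and 11.3% in the reverse order. For the MED1 replicates the shares were 2.85% and 3.35%. Across factors the 8 shares ranged from 20.6 to 34.2%, all above the 4 replicate shares. With the full lists the shares moved with list length. Regions high in NIPBL replicate 1 were low or absent in NIPBL replicate 2 in 17.8% of cases (924 regions, 1.9% of all), in MED1 replicate 1 in 36.7% (1904 regions, 3.91%) and in MED1 replicate 2 in 14.2% (736 regions, 1.51%). With these full lists several pairs across factors differed less often than a replicate pair did. From NIPBL replicate 2 the counts were 261 (0.536% of all regions) against NIPBL replicate 1, 1039 (2.13%) against MED1 replicate 1 and 338 (0.694%) against MED1 replicate 2. From MED1 replicate 1 they were 815 (1.67%) and 999 (2.05%) against NIPBL replicates 1 and 2, and 13 (0.0267%) against MED1 replicate 2. The long MED1 replicate 2 list gave 4522 (9.29%) and 5172 (10.6%) against NIPBL and 2739 (5.63%) against MED1 replicate 1.

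**Figure D3:**
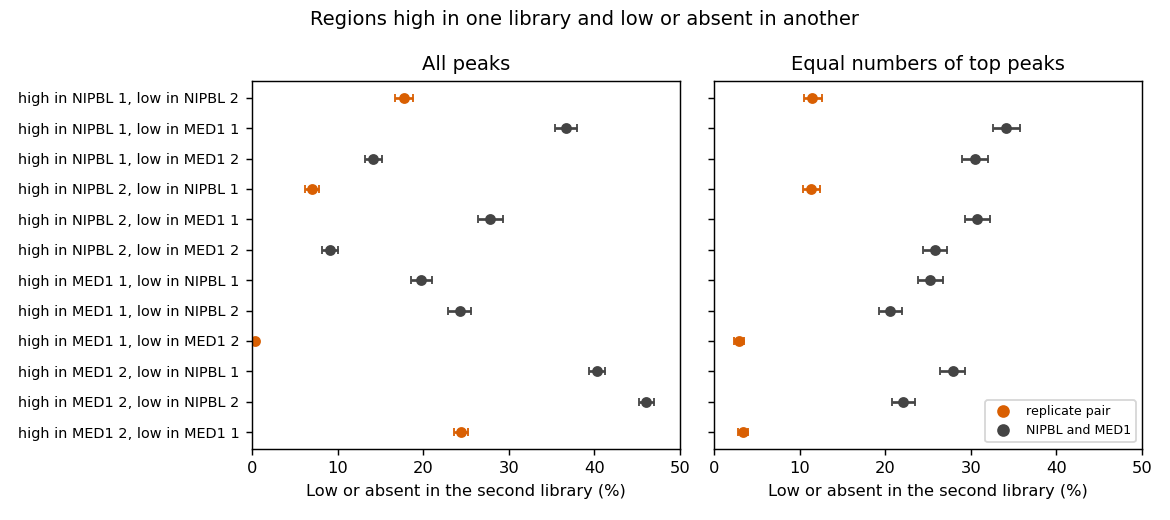
Share of regions high in one library that were low or absent in another (x axis, percent) for each ordered pair of libraries, with all peaks (left) and with the strongest 15357 peaks of each list (right). Points are shares, bars exact 95% intervals, orange the replicate pairs; on the right the replicate pairs span 2.85 to 11.5% and the pairs across factors 20.6 to 34.2%.

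The 3 classes differed in width and setting. NIPBL-high MED1-low regions had a median width of 443 bp, close to the 422 bp of all regions. MED1-high NIPBL-low regions had a median width of 956 bp and regions high in both 1213 bp. A merged region spans its peaks, and the MED1 replicate 2 peaks of these wider classes had median widths of 952.5 and 1136 bp. Width therefore partly follows from which lists hold a peak. The next region lay within 5000 bp for 40.5% of NIPBL-high MED1-low regions, for 70.3% of MED1-high NIPBL-low regions and for 83.8% of regions high in both, against 64.5% of all regions. Chromosomes 17, 19 and 22 held 8.33%, 16.5% and 10.3% of the classes in that order, and 12.1% of all regions. The local control is the denominator of the fold that set the classes, so its values in them partly follow from that choice. Its median in NIPBL replicate 1 was 4.83 fragments at NIPBL-high MED1-low regions, against 6.63 over all its regions. At the 156 MED1-high NIPBL-low regions with a NIPBL replicate 1 peak it was 9.05. In MED1 replicates 1 and 2 the MED1-high NIPBL-low regions had 6.88 and 5.19, against 7.50 and 5.19 over all their regions. Ranked by pileup, which holds no control, 30 of the 168 NIPBL-high MED1-low and 134 of the 498 MED1-high NIPBL-low regions stayed in their class. Why the others left was not tested.

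SMC1A, which had no part in choosing the classes, had peaks of far higher fold at NIPBL-high MED1-low regions. That fold has the same pooled control in its denominator as the folds that set the classes. SMC1A pileups were not compared between the classes, and what the control adds to the contrast was not tested. Where an SMC1A peak was present, its median percentile was 92.4 and 94.1 in SMC1A replicates 1 and 2, that is, a fold enrichment of 25.6 and 29.1. At MED1-high NIPBL-low regions the percentiles were 20.8 and 27.6 and the folds 4.404 and 4.67. At regions high in both factors the percentiles were 29.0 and 43.2 and the folds 5.201 and 6.25. Both SMC1A libraries thus gave the same order, with the NIPBL-high class well apart from the others. A peak among the strongest 10% of its SMC1A list lay in 42.9% (35.3 to 50.7%) and 45.8% of NIPBL-high MED1-low regions. The same was true of 1.20% and 1.61% of MED1-high NIPBL-low regions, of 1.90% and 2.44% of regions high in both, and of 3.86% and 4.61% of all regions. The difference in median percentile between the first 2 classes was 69.0 points, the mean over the 2 SMC1A libraries, and 57.0 to 69.5 points under the alternatives run. In all of these SMC1A kept its full lists ranked by fold, and only the NIPBL and MED1 classes changed.

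**Figure D4:**
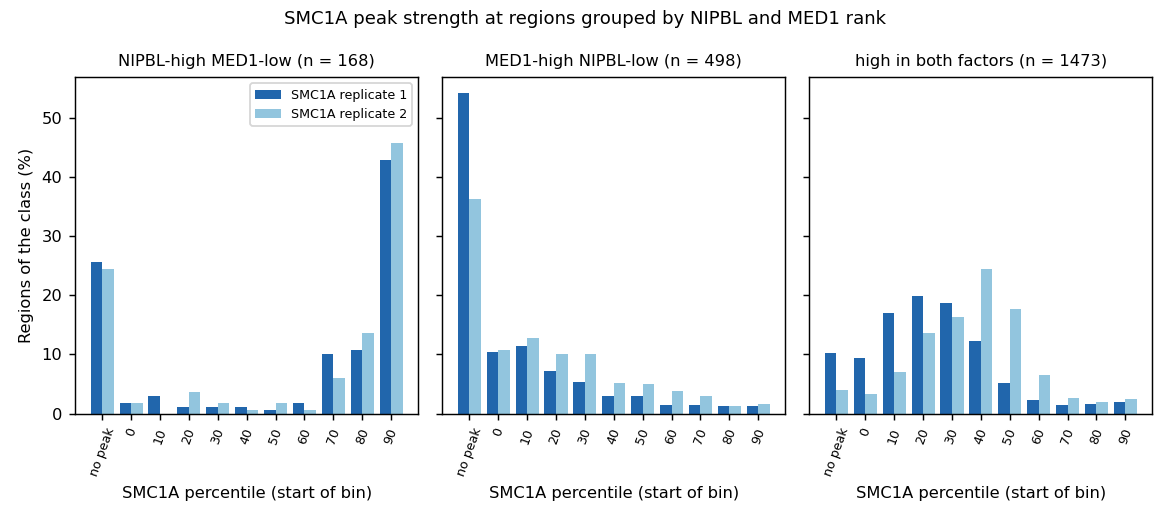
Share of the regions of each class (y axis, percent) by the percentile of their strongest SMC1A peak in bins of 10 points, labelled by the start of the bin, with regions lacking a peak at the left (x axis). The bins from 90 up hold 42.9% and 45.8% of NIPBL-high MED1-low regions in SMC1A replicates 1 and 2, and under 3% of each other class.

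The share of regions with any SMC1A peak was a weaker contrast. It was 74.4% and 75.6% at NIPBL-high MED1-low regions, 45.8% and 63.7% at MED1-high NIPBL-low regions, and highest at regions high in both, with 89.7% and 96.1%. All regions gave 35.8% and 47.9%. The difference between the first 2 classes, 20.3 points as the mean over the SMC1A libraries, fell to 2.14 points with equal numbers of top peaks and was -0.714 without NIPBL replicate 2. Within regions above 500 and up to 1000 bp the shares were 87.9% and 86.2% of 58 NIPBL-high regions against 44.7% and 62.9% of 237 MED1-high regions. The median SMC1A percentiles there were 89.1 and 90.8 against 21.98 and 29.1, so the contrast in strength was present at like widths.

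Strong SMC1A was rare along most of the balance between the factors when all 4 had a peak. The 7480 regions were cut into 10 equal classes by mean NIPBL percentile minus mean MED1 percentile. In the class tilted most to MED1, with a median difference of -55.2 points, 0.535% and 1.34% of regions had a peak among the strongest 10% of SMC1A replicates 1 and 2. In the class tilted most to NIPBL, with a median difference of 26.04 points, the shares were 4.41% and 4.95%. Over the 7480 regions they were 2.05% and 2.63%, and the NIPBL end lay near the 3.86% and 4.61% of all merged regions. The median SMC1A percentile was highest in the seventh class, near balance, at 28.8 and 41.2, where both factors also ranked highest. It fell to 17.4 and 26.6 at the MED1 end and to 18.8 and 26.8 at the NIPBL end.

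Summits of the factors lay at median distances around that of the NIPBL replicates. The median distance between summits of the strongest peaks was 47 bp for the NIPBL replicates and 36 bp for the MED1 replicates. Across factors it was 50 and 46 bp for NIPBL replicate 1 with MED1 replicates 1 and 2, and 48 and 43 bp for NIPBL replicate 2. The NIPBL replicate value lay within the range across factors. The means were 46.75 bp across factors and 41.5 bp between replicates, a gap of 5.25 bp (exact two-sided permutation test over the 3 pairings, p = 0.333). The gap was 10 and 13.5 bp without NIPBL replicate 1 or 2, and 0.5 and 2 bp without MED1 replicate 1 or 2. Regions over 2000 bp spread further, with 38 bp between MED1 replicates, 76 bp between NIPBL replicates and 71 to 85 bp across factors. In 4875 of the 7480 regions (65.2%) both factors had replicate summits within 100 bp. There the mean summits of the factors lay a median of 26.5 bp apart, 75.3% within 50 bp, and 66 regions (1.35%) over 500 bp apart.

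At strong cohesin peaks the factors had different distances to SMC1A. In 149 regions all 4 libraries had a peak and both SMC1A lists had one at percentile 90 or above. From the nearest SMC1A replicate 1 summit, the median distance was 104 and 84 bp for NIPBL replicates 1 and 2, and 64 and 44 bp for MED1 replicates 1 and 2. From the nearest SMC1A replicate 2 summit it was 98 and 81 bp for NIPBL and 61 and 46 bp for MED1. The nearest summit need not be that of the strong peak. Both NIPBL libraries were farther than both MED1 libraries in each case, by 40 and 36 bp on average (exact two-sided permutation test over 4 libraries, p = 0.333, the smallest possible). A summit within 50 bp of that of SMC1A replicate 1 was found in 12.8% and 22.8% of regions for NIPBL and in 37.6% and 55.7% for MED1. SMC1A replicate summits were themselves 11 bp apart at the median. Median pileups at these regions were 35 and 32 fragments for NIPBL and 31 and 53 for MED1. Regions were not matched by pileup, and the cause of the difference in distance was not tested. Over the alternatives, which were chosen after seeing the data, the difference averaged over both SMC1A libraries was 38 bp, ranged from 27 to 55.75 bp, and was 31.6 bp without MED1 replicate 2.

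At the 3963 regions whose SMC1A peaks were below percentile 50 in both lists, the distances to SMC1A replicate 1 were 68 and 65 bp for NIPBL and 60 and 55 bp for MED1. The difference was 9 bp there. Strong SMC1A regions with both NIPBL and no MED1 peak, 214 in number, had NIPBL summits 98.5 and 82.5 bp away. The 53 strong SMC1A regions with both MED1 and no NIPBL peak had MED1 summits 52 and 47 bp away.

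**Figure D5:**
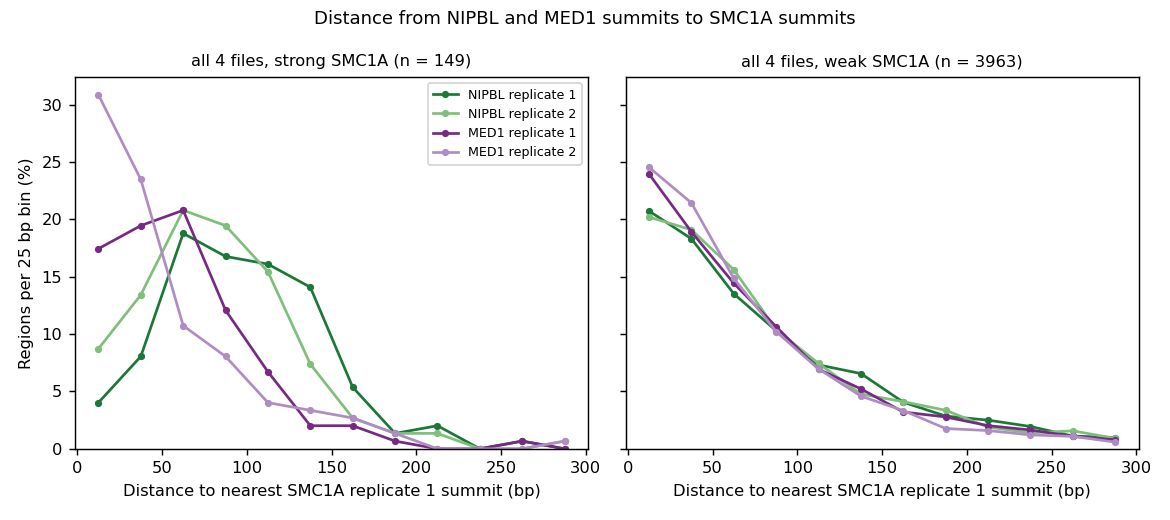
Share of regions (y axis, percent) by distance from each library's summit to the nearest SMC1A replicate 1 summit, in bins of 25 bp drawn up to 300 bp (x axis), where SMC1A was strong (left, 149 regions) or weak (right, 3963 regions). On the left the NIPBL lines peak away from 0, with medians of 104 and 84 bp, and the MED1 lines lie nearer, with medians of 64 and 44 bp.

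NIPBL summits of the NIPBL-high MED1-low class also lay beside, and seldom on, the SMC1A summit. They lay a median of 128.5 and 122 bp from the nearest SMC1A replicate 1 summit, a value that includes regions without SMC1A, and 6.55% of them lay within 50 bp in either library. In the 70 of these regions with SMC1A at percentile 90 or above in both lists, the distances were 106.5 and 89.5 bp, while the 2 NIPBL summits of a region were 31 bp apart at the median.

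Single regions show the extremes, given by hg19 position (1-based). They were taken by the lowest percentile over the 4 lists for regions high in both, and by the difference of mean percentiles for the other classes. The first of the 10 regions strongest in both factors, at chromosome 10 from 125148683 to 125154096, had a fold of 12.7 and 15.3 in NIPBL and of 22.98 and 45.4 in MED1. Its SMC1A peaks were of middle rank, with folds of 8.49 and 11.4. The region at chromosome 7 from 55600708 to 55603905 had NIPBL folds of 18.8 and 16.8 and MED1 folds of 18.0 and 38.0. The strongest NIPBL replicate 1 peak of all, with a fold of 24.0, lay at chromosome 3 from 124859434 to 124861324 together with NIPBL replicate 2 at 14.8 and MED1 at 16.1 and 27.6. At these 3 regions all 4 NIPBL and MED1 libraries ranked above percentile 99. All 10 had SMC1A peaks, and 1 of them had one among the strongest 10%.

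Among the 10 NIPBL-high MED1-low regions with the largest difference, the first lay at chromosome 2 from 171092320 to 171092874. It had NIPBL folds of 11.2 and 11.04, pileups of 71 and 61 fragments, no MED1 peak and SMC1A folds of 22.1 and 30.9. Both NIPBL summits fell at 171092530 and 171092531. The region at chromosome 5 from 78195544 to 78196056 had NIPBL folds of 9.49 and 8.28 and SMC1A folds of 31.5 and 34.8, again without MED1. The region at chromosome 16 from 10275382 to 10275885 had NIPBL folds of 7.11 and 7.80 and SMC1A folds of 40.9 and 48.5. At chromosome 20 from 46012656 to 46013338, NIPBL folds of 9.39 and 9.47 stood beside a MED1 replicate 2 fold of 2.95, percentile 4.83. One of the 10, at chromosome 21 from 9825676 to 9826421, had NIPBL folds of 8.13 and 7.33 with pileups of 115 and 89 and no MED1 or SMC1A peak. Its control estimates of 13.3 and 11.3 fragments were the highest of the 10, and whether reads at this place map to a single position was not tested. The 10 were 311 to 938 bp wide, and 6 and 7 of them held one of the strongest 10% of SMC1A peaks in replicates 1 and 2.

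All 10 MED1-high NIPBL-low regions with the largest difference lacked NIPBL in both lists, and their MED1 peaks were among the strongest measured. Both features follow largely by construction, since the regions were chosen by that difference and a missing peak counted as the lowest rank. The region at chromosome 1 from 17222309 to 17223508 held the strongest peak of MED1 replicate 1, with a fold of 35.4, and a fold of 53.3 in MED1 replicate 2. The region at chromosome 15 from 65587689 to 65589166 had folds of 25.3 and 38.9 and a MED1 replicate 1 pileup of 293 fragments, with no NIPBL or SMC1A peak. The region at chromosome 6 from 27792063 to 27793671 had folds of 24.7 and 39.9 and no SMC1A peak. At chromosome 17 from 8076094 to 8077613 the folds were 21.5 and 37.6, beside SMC1A folds of 2.96 and 3.18. The 10 lay on 4 chromosomes, with a median width of 1496.5 bp. SMC1A peaks were present in 3 and 5 of them in replicates 1 and 2, and none was among the strongest 10%. Genes at these positions, small RNA and histone genes included, were not looked up, since no hg19 annotation was used here.

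In a few wide regions the strongest summits of the factors lay apart, each repeated by its replicate. These distances depend on which of several peaks ranks first. The largest, 10816.5 bp, was at chromosome 13 from 99948603 to 99960661. NIPBL summits lay at 99948800 and 99948900 with folds of 4.72 and 4.74, and MED1 summits at 99959650 and 99959683 with folds of 6.79 and 14.3. The distance was 980.5 bp without MED1 replicate 2 and 7093.5 bp when ranked by pileup. At chromosome 17 from 57914169 to 57918819 the factors' summits were 2914.5 bp apart, but 1466 bp when ranked by −log10 p and 69.5 bp by pileup. At chromosome 13 from 46751773 to 46758540 they were 2613.5 bp apart, with folds of 6.401 and 7.25 in NIPBL and 5.45 and 11.5 in MED1, and 1049.5 bp apart without NIPBL replicate 1.

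Peak width was compared over the 7480 regions as well. Median widths were 460 and 374 bp in NIPBL replicates 1 and 2 and 421 and 869 bp in MED1 replicates 1 and 2. MED1 replicate 2 alone was wide, and the others overlapped. The difference of 228 bp between the factors' means gave p = 0.667 (exact two-sided permutation test over 4 libraries). The smallest p this test can give is 0.333, so it cannot decide the question. Without MED1 replicate 2 the difference was 9.5 bp.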

How the data were processed

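Per the submitters' processing notes, the tools were Trimmomatic 0.33, BWA 0.7.12 and MACS2 2.1.0 with build hg19. The parameters of these tools were not stated in the labels or files used. Each ChIP library was called by the authors on its own, with the 2 pooled whole cell extracts as control, per the labels. The deposited fold enrichment at the summit is a linear ratio to the local control and was ranked here. The deposited −log10 p-value and −log10 q-value columns served for alternatives and for solving each summit's pileup and control (tolerance 0.001, 99.8% or more of the peaks of each of the 4 lists solved). The deposited score was not used. The deposited summit offsets gave summit positions.

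Peaks outside chromosomes 1 to 22 and X were left out. Percentiles are 100 times the average rank divided by the number of peaks in the list. Tests were exact permutations over libraries, whose smallest p is 0.333, and intervals were exact Clopper-Pearson 95% intervals. Steps were tested on simulated data. Python 3.11.15, numpy 2.4.6, pandas 2.3.3 and scipy 1.17.1 were used.

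Named regions were the 10 with the highest minimum percentile, the 10 of each discordant class with the largest difference of mean percentiles (no peak counted as 0), and the 5 with replicate summits within 100 bp and the largest distance between the factors' summits. The members, rules and lists were chosen with earlier results of these data known. Strength of SMC1A by class, distance to SMC1A summits and ranking by pileup were added after seeing the data. Alternatives covered the ranking column, list length, a minimum −log10 q of 5, merging, thresholds, region width, and each library left out. Gene annotation, gene lists and sequence motifs need a genome of build hg19 and were not used here.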

Additional observations from a re-analysis of the deposited data

Results flagged for a closer look

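Peaks on sequences other than chromosomes 1 to 22, X and Y were left out of every comparison, and each list held some. There were 39 in NIPBL replicate 1 and 12 in NIPBL replicate 2. MED1 replicate 1 had 29 and MED1 replicate 2 had 37. No list of the 4 had a peak on chromosome Y, and peak lists of the whole cell extracts were not analysed here.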

How the results depend on the processing

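Of 128 alternative values for 11 results, 104 were counted as unchanged, 23 as moved and 1 as reversed. For the rank correlation gap, the summit gap, the width difference and the difference in SMC1A distance, only direction was judged, not size. The rank correlation gap ranged from 0.252 to 0.386 and the summit gap from 0.5 to 13.5 bp. The width difference ranged from 9.5 bp without MED1 replicate 2 to 313 bp. NIPBL-high MED1-low regions numbered 77 when ranked by −log10 p (67 shared with the reported 168), 48 by pileup (30 shared), 357 with equal numbers of top peaks, 105 at a −log10 q of at least 5, 107 at thresholds of 80 and 20, and 170 to 729 with each library left out. MED1-high NIPBL-low regions numbered 302 with equal numbers of top peaks, 295 at 80 and 20, 306 when absent from both NIPBL lists, and 723 to 3704 with each library left out, the highest without MED1 replicate 1. Ranking by −log10 p gave 427 of these, 290 of them shared with the reported 498, and ranking by pileup gave 346, with 134 shared. Regions high in both numbered 977 at a −log10 q of at least 5 and 896 with at most 1 peak per list. The difference in SMC1A share came to 2.14 points for lists of equal length and -0.714 to 26.6 with each library left out, reversed without NIPBL replicate 2. The SMC1A strength difference was 65.0 points by −log10 p, 64.5 with equal numbers of top peaks, 65.2 by pileup, and 57.0 to 68.9 with each library left out. These settings changed the NIPBL and MED1 lists only, and SMC1A stayed ranked by fold in its full lists. The rise of the partner's median percentile from the weakest to the strongest of 10 classes, averaged over the pairs across factors, was 45.7 points and 72.3 by pileup. Cutting lists to equal numbers leaves fewer peaks by construction, and leaving out a library removes a condition of each class. For the other changes the cause was not tested. Of 315 values for the 35 named regions, 31 moved. Only the named regions of the discordant classes could reverse, and none did. Ranked by pileup, their difference of mean percentiles was at least 38.0 points for NIPBL-high MED1-low regions and -93.1 or lower for MED1-high NIPBL-low regions.

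The replicate numbers did not pair the libraries: pairs with the same number across factors had a mean rho of 0.411 and pairs with other numbers 0.402, and replicate differences of the 2 factors had a rho of 0.035. With the replicate block the correlation gap was 0.331, the summit gap 5 bp and the width difference 228 bp. Files hold no read totals, so depth is known only through pileups. The lowest summit pileup of a called peak was 8 to 11 fragments. It is not a limit of detection for every place, since calls depend on the local control.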
